A study of Mus musculus with 24 samples.

Results

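Cholesterol and fatty acid synthesis was described through 8 genes, Hmgcs1, Sqle, Insig1, Srebf1, Srebf2, Fasn, Acaca and Acacb. They were taken by gene symbol from a table of 53465 mouse genes. Of these, 15493 reached 5 normalized reads in 6 or more mice of either genotype, and all 8 genes were among them. The lowest value of any of the 8 genes in any mouse was 13 reads, for Sqle, so that none passed through 1 genotype alone. The list was chosen by the reads of the mutants over time, knowing that Acacb had the smallest p-value of a 24-h pattern among the 15493 genes there (rank 1). The values of the 8 genes over time in mutants are therefore a description and carry no test.

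The libraries hold RNA of CD31+ endothelial cells, the lining of blood vessels, that were sorted from 1 C57BL/6J mouse brain each. The 12 control mice were Bmal1fl/fl, with loxP sites in the clock gene Bmal1 (symbol Arntl) and no Cre. The 12 mutant mice were Bmal1fl/fl; Tie2cre, in which Cre is driven by the Tie2 (Tek) promoter, active in endothelial cells and also in blood cells of the same lineage. Brains were taken every 4 h from ZT2 to ZT22, from 2 mice per genotype and time, where ZT counts hours since lights on and lights went off at ZT12. Both genotypes were fed freely under 12 h of light and 12 h of dark, mice of both sexes were used, and the ages were not given in the sources used here. Each library is 1 mouse, and whether the numbered replicates are separate experiments is not given for each library.

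Totals lay between 6136404 and 6648311 normalized reads per library, after the authors had brought the libraries to similar totals. Arntl itself had 1 to 468 reads in controls (median 166.5) and 81 to 354 in mutants (median 242.5). These are counts over the whole gene, and reads outside the deleted part remain, so they do not check the genotype. All 10 brain endothelial markers were detected in both genotypes, with summed levels of 79274 to 121505 TMM-normalized reads in controls and 85616 to 124361 in mutants. The 8 libraries of ZT6 and ZT18 stood apart from the other 16 in their content of other cell types. Their astrocyte markers summed to 5293 to 8729 reads against 11084 to 21677, their microglia markers to 1008 to 1659 against 8894 to 24440, and mitochondrial genes held 2.68 to 3.90% of reads against 5.78 to 17.4%. Time of day and this difference between libraries cannot be told apart at these 2 time points. In the labels, 3 libraries, both mutants of ZT14 and control ZT2 replicate 1, carry title numbers apart from the run of numbers of the other 21. Within this run the 8 libraries of ZT6 and ZT18 hold the lowest numbers, without a gap. What the numbers stand for is not given. In bulk samples, fewer cells of a type and less RNA per cell cannot be told apart either.

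Cells make cholesterol from acetyl-CoA through the mevalonate pathway. When sterols in the endoplasmic reticulum fall, the precursors of SREBP-2 (Srebf2) and SREBP-1 (Srebf1) are carried by SCAP to the Golgi, where 2 proteases release the part that enters the nucleus and switches on the genes of synthesis and uptake. INSIG proteins hold the SCAP complex back when sterols are plentiful. Fatty acid synthesis starts from malonyl-CoA, which is made by the acetyl-CoA carboxylases. The brain makes its cholesterol locally because lipoproteins hardly cross the barrier formed by its endothelium, and lipid synthesis in liver follows feeding and the clock.

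The promoters of 4 genes are shown for the motifs by which this family is known to be switched on. Windows of 250 bases before to 50 bases after a transcript start were available from RefSeq (GRCm38.p6) for 7 of the 8 genes, in 9 windows; Sqle was not among them. They were searched on both strands for TCACCCCA, the core of a sterol response element, for CACGTG, the E-box that BMAL1 with CLOCK can bind, and for CCAAT, the NF-Y box, which reads ATTGG on the other strand. The printed stretches run 5′ to 3′ on the strand of the gene and end before the first annotated exon. Capitals mark the matches.

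Hmgcs1, chr13:119690101-119690350, plus strand: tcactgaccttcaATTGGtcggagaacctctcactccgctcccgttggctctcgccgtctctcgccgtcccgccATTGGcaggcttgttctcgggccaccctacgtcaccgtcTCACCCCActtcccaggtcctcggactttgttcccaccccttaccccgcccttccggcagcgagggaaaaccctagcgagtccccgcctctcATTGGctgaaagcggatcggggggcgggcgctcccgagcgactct
Srebf2, chr15:82147019-82147180, plus strand: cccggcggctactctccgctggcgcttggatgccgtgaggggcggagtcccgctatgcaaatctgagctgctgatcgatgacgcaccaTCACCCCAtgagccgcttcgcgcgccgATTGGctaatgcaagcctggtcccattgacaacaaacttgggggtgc
Insig1, chr5:28071162-28071362, plus strand: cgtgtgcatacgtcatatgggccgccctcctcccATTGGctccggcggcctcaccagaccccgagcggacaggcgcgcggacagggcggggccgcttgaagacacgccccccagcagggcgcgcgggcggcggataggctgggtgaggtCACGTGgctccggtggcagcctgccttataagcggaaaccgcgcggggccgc
Fasn, chr11:120824548-120824797, minus strand: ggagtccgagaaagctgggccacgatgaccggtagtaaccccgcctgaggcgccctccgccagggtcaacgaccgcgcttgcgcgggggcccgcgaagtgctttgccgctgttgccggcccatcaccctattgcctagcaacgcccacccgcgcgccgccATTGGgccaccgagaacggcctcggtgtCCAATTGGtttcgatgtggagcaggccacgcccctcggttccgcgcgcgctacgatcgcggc

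The sterol response element core was found in the windows of Hmgcs1 and Srebf2 and in no other window of the 8 genes. It occurs in 1.56% of 32851 windows of this length. The E-box was found in the window of Insig1, against 7.15% of all windows. The NF-Y box was found in windows of Hmgcs1 (4 matches, 1 of them after the start), Fasn (3 matches, with the last pair overlapping), Srebf1, Srebf2, Insig1 and Acacb, against 37.4% of all windows. The RefSeq start in the window of Acacb lies 18983 bases into the annotated gene, at an exon that is a later exon of an annotated transcript, and that of Acaca lies 65766 bases into the gene, at an exon that is a later exon in 6 transcripts and the first exon of 1. Neither is printed. Srebf1 has 3 windows, and the counts are per gene, so its isoforms cannot be separated. A match is a string of letters and no binding was measured here.

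Per kilobase of annotated exon, Hmgcs1, the enzyme that joins acetyl-CoA and acetoacetyl-CoA to HMG-CoA (chr13:119690379-119708260), had the highest level in controls, at 91.9 ± 18.2 reads (SD, n = 12). Srebf2, the transcription factor of the cholesterol genes (chr15:82147181-82205379), followed at 81.5 ± 17.6 reads per kb. Insig1, which retains the SCAP complex (chr5:28071363-28078662), lay at 76.1 ± 20.2 reads per kb, and Acacb, the carboxylase at the outer mitochondrial membrane (chr5:114146535-114250761), at 67.9 ± 10.0. Among these 4 genes, each differed from the next in the order by less than the SD of either. Srebf1, the factor tied to the fatty acid genes (chr11:60199089-60222581), had 47.8 ± 12.1 reads per kb, and its range of 31.6 to 68.2 overlapped that of Acacb, 49.5 to 83.4. Fasn, the fatty acid synthase (chr11:120805846-120824547), had 29.8 ± 11.03 reads per kb, and Acaca, the cytosolic carboxylase (chr11:84129672-84401651), had 21.2 ± 3.98. Sqle, the squalene epoxidase and a rate-limiting step of cholesterol synthesis (chr15:59315077-59331192), was lowest with 10.8 ± 4.09 reads per kb. Fasn and Acaca overlapped, and so did Acaca and Sqle, whose highest control (16.8) lay above the lowest of Acaca (14.4). The mutants had Hmgcs1 at 84.5 ± 22.2, Srebf2 at 80.4 ± 9.86, Acacb at 71.1 ± 26.5, Insig1 at 65.9 ± 11.4, Srebf1 at 56.4 ± 9.48, Fasn at 29.5 ± 6.14, Acaca at 20.9 ± 4.27 and Sqle at 7.65 ± 4.51 reads per kb (SD, n = 12). Within the same gene lengths the order in mutants thus differed from that of controls only in that Acacb stood before Insig1, by less than the SD of either. Coordinates are those of GENCODE vM21 on GRCm38, and exon lengths are the union of all annotated exons, which lowers the level of genes with many rarely used exons.

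**Figure D1:**
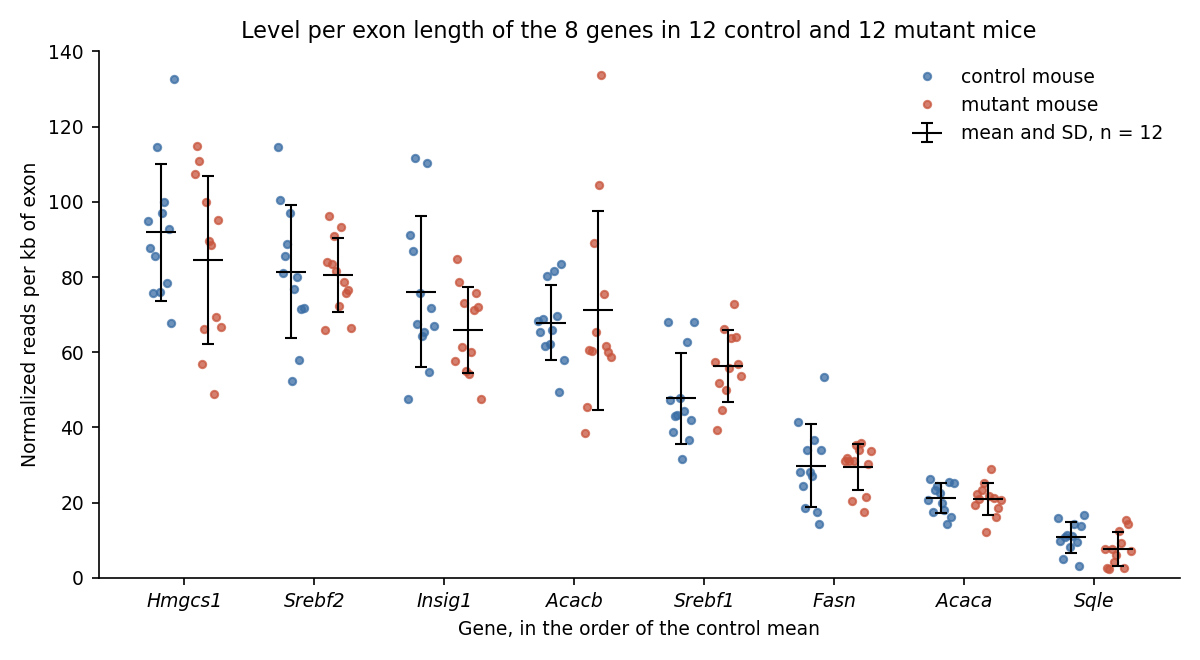
Normalized reads per kb of annotated exon (y axis) of the 8 genes (x axis, ordered by the control mean), 1 point per mouse, with the mean and SD of 12 control and 12 mutant mice. Hmgcs1 is highest at 91.9 reads per kb in controls and Sqle lowest at 10.8, and the spread of Acacb is wider in mutants (SD 26.5) than in controls (SD 10.0).

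Acacb makes malonyl-CoA at mitochondria, where it inhibits the carnitine shuttle of fatty acids. The mutants of ZT2 had 371 and 437 reads of Acacb, those of ZT6 had 584 and 580, ZT10 gave 859 and 631, ZT14 gave 1006 and 1287, ZT18 gave 728 and 595, and ZT22 gave 579 and 566. The controls of ZT2 had 658 and 631 reads, those of ZT6 had 664 and 594, ZT10 gave 774 and 598, ZT14 gave 635 and 785, ZT18 gave 670 and 477, and ZT22 gave 803 and 558. Both mutants of ZT14 lay above the highest of all 12 controls, 803 reads, and both mutants of ZT2 lay below the lowest control, 477 reads. The mean of ZT14 was 2.84 times that of ZT2 in mutants. The highest time point of controls was also ZT14, at 1.24 times the lowest, ZT18.

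The cosine fitted to Acacb over 24 h had a relative amplitude of 42.4 ± 9.46% of the mean in mutants (SE), with its peak at ZT13.6, and of 3.39 ± 6.56% in controls. Because this pattern chose the gene, it is a description. Both mutants of ZT14 are libraries with a title number apart from the others, no other mutant is, and time and this numbering cannot be told apart there. Without both the amplitude was 28.2%, and without the mutants of ZT6 and ZT18 it was 54.2%. Leaving out single mutants gave 34.1 to 45.3%. By amplitude Acacb ranked 141 of the 9883 genes with a mean of 50 or more reads in mutants. The summed brain endothelial markers were 106632 and 113689 TMM-normalized reads in the 2 mutants of ZT14, above the 85616 to 98567 of the mutants at ZT2, ZT10 and ZT22. The mutants of ZT6 and ZT18 had higher sums, 114223 to 124361, with 580 to 728 reads of Acacb. The 2 controls of ZT14 had sums of 106707 and 110551, with 635 and 785 reads of Acacb. The part of these markers in the Acacb values was not tested. The astrocyte, microglia and neuron sums of the ZT14 mutants lay within the range of the mutants at ZT2, ZT10 and ZT22. For mural cell, oligodendrocyte and red blood cell markers 1 of the 2 lay outside that range.

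Over the whole day no difference between the genotypes was found in the level of Acacb. The mean was 654 ± 96.4 reads in controls and 685 ± 255 for the mutants (SD, n = 12), and the log2 fold change of mutant over control from edgeR's quasi-likelihood test was -0.0015 (95% interval -0.24 to 0.23, adjusted p = 0.999). At ZT14 both mutants lay above both controls, and at ZT2 and ZT6 both lay below. Hmgcs1 and Fasn also had time points with both mutants above and others with both below. This holds for 3 of the 8 genes and for 39.5% of all genes tested, so that the share among the 8 genes was near the background.

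**Figure D2:**
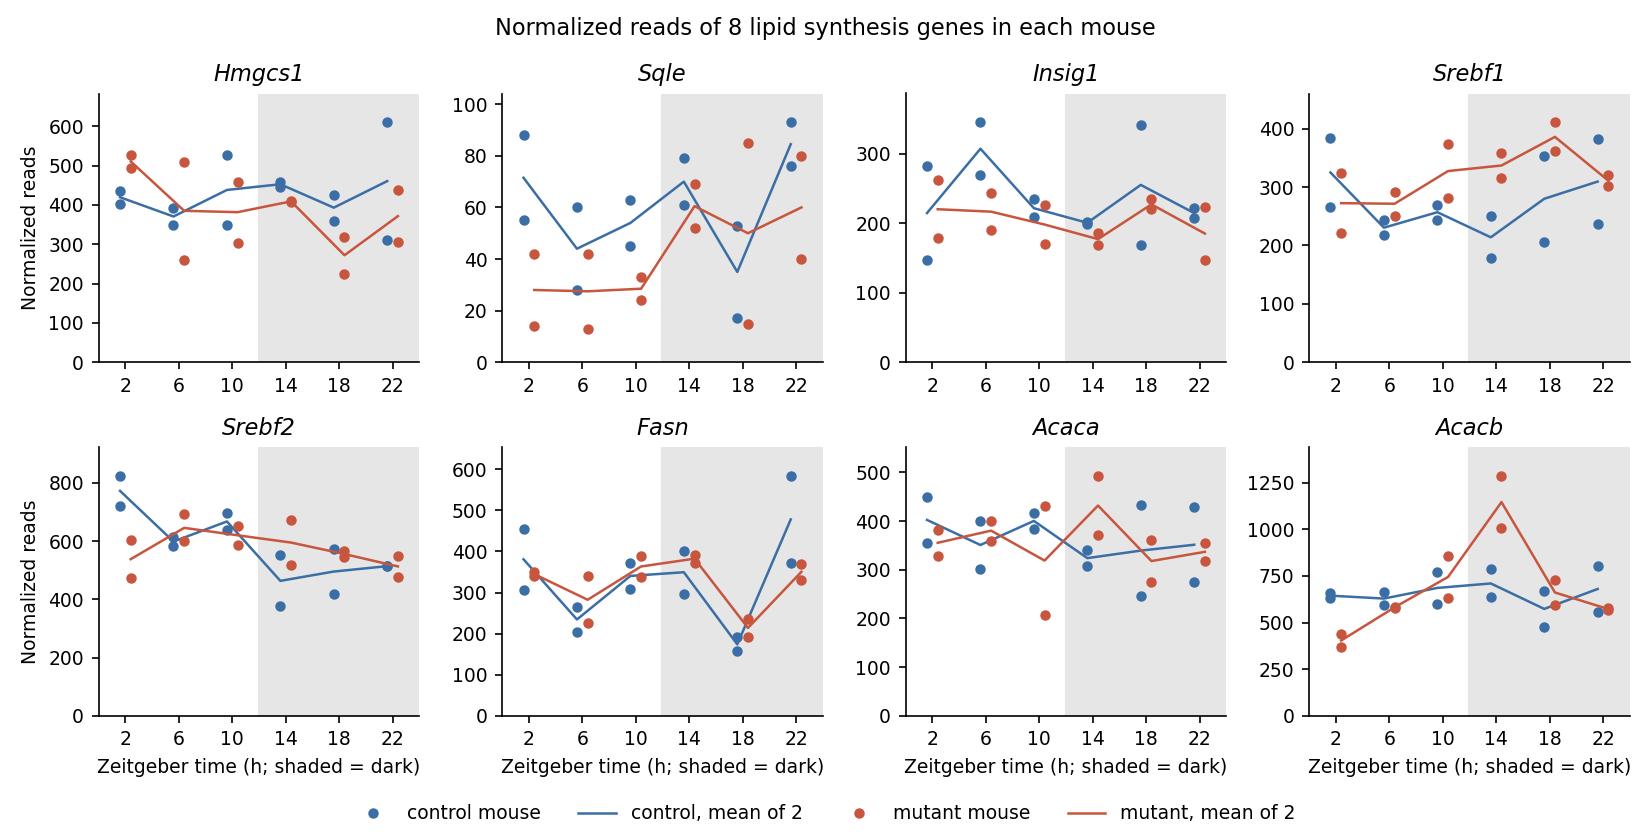
Normalized reads (y axis, from 0) against zeitgeber time in hours (x axis, dark phase shaded) for each of the 8 genes; points are single mice and lines join the means of 2 mice per genotype. Acacb in mutants reaches 1006 and 1287 reads at ZT14, while its 12 controls lie between 477 and 803; Srebf2 in controls is higher in the light (582 to 824) than in the dark (376 to 574).

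Srebf2 was the gene of the 8 whose controls separated by phase of the day. The 6 controls of the light phase had 824 and 721 reads at ZT2, 582 and 615 at ZT6, and 637 and 698 at ZT10. The 6 controls of the dark phase had 376 and 551 reads at ZT14, while ZT18 gave 574 and 417, and ZT22 gave 513 and 515. The groups did not overlap, with means of 679.5 and 491.0 reads. Such a separation, in either direction, was seen in 0.265% of all genes and in 1 of the 8. The log2 fold change of dark over light was -0.41 (SE 0.13, 95% interval -0.71 to -0.12) with an unadjusted p = 0.0066 and an adjusted p = 1 over all genes (edgeR), so that it did not pass the test. In this comparison 0 genes of 15493 (0%) had an adjusted p under 0.05, and 3.41% had an unadjusted p under 0.05, among them 1 of the 8 genes. DESeq2 called 5 genes, none of the 8. Among alternatives of this fit, the log2 fold change of Srebf2 lay between -0.50 and -0.36.

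In mutants Srebf2 had 473 to 692 reads, with a mean of 601 in the light and 554.5 in the dark and with overlapping groups. The cosine in controls had a relative amplitude of 20.5 ± 6.997% with a peak at ZT4.5, and that in mutants 10.5 ± 4.29% with a peak at ZT9.4. By meta2d, which combines JTK_CYCLE and Lomb-Scargle, Srebf2 had the smallest p-value of the 8 genes in controls, 0.193, and q = 1. Of the 8 genes, 0 had q under 0.6, the cut-off of the study, which 0.31% of all genes passed, and 0 had an unadjusted p under 0.05, against 2.43% of all genes. By the edgeR cosinor 0 of the 8 had q under 0.6, against 0.858% of all genes, and Srebf2 had an unadjusted p = 0.069.

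The other 7 genes did not separate by phase in controls. Hmgcs1 had means of 409 reads in the light and 435 in the dark, a log2 fold change of 0.15 (95% interval -0.23 to 0.52). Insig1 had 248 and 223 (log2 fold change -0.097, interval -0.58 to 0.39). Fasn had 319 and 334 (0.12, interval -0.50 to 0.75), and Acaca 385 and 338 (-0.13, interval -0.50 to 0.23). Sqle, Srebf1 and Acacb had log2 fold changes of 0.22, 0.036 and 0.062. Leaving out single controls gave 0.038 to 0.23 for Hmgcs1, 0.088 to 0.42 for Sqle and -0.20 to -0.069 for Acaca. The intervals of Hmgcs1, Sqle, Insig1 and Fasn reach past 0.5 on the log2 scale on at least 1 side, so that a difference of that size is not excluded for these genes.

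**Figure D3:**
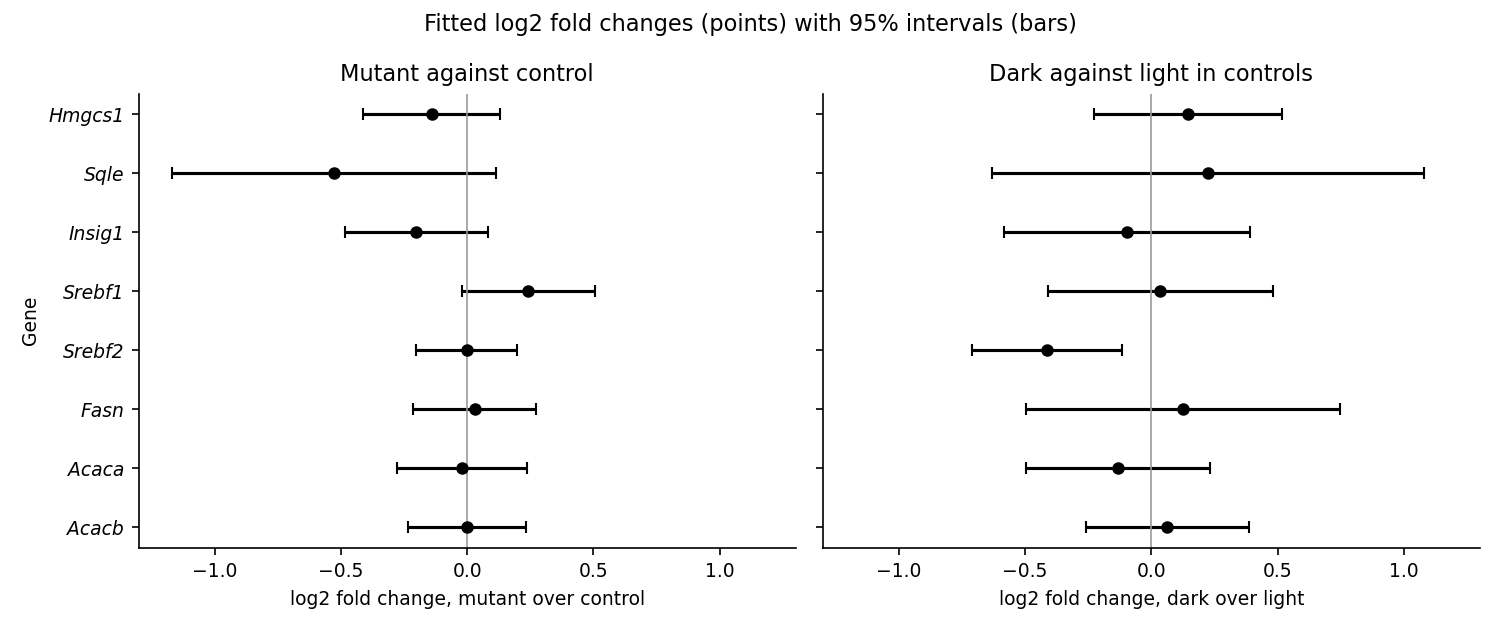
Log2 fold changes (x axis) of the 8 genes (y axis) between mutants and controls (left, 24 mice with time as a factor) and between dark and light in controls (right, 12 mice); bars are 95% intervals. All 8 intervals include 0 in the genotype comparison, and that of Srebf2 (-0.71 to -0.12) lies below 0 in the dark against light comparison, where its adjusted p is 1.

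Between the genotypes, 0 of the 8 genes had an adjusted p under 0.05 in edgeR's quasi-likelihood test, against 42 of all genes (0.271%), and 0 had an unadjusted p under 0.05, against 6.95% of all genes. DESeq2 also called none of the 8, with 99 genes called in all. The median log2 fold change of the 8 genes was -0.012, beside 0.0033 over all genes. Of the 8 log2 fold changes, 6 were negative and 2 positive. Sqle had 17, 60.5 and 93 reads in controls (lowest, median and highest) and 13, 41.0 and 85 in mutants, with overlapping groups. Its log2 fold change of -0.53 had a wide interval, -1.17 to 0.11 (unadjusted p = 0.093, adjusted p = 0.804). With the sequencing index as a covariate it was -0.24 (unadjusted p = 0.512). Without ZT6 and ZT18 it was -0.75 (unadjusted p = 0.0194, adjusted p = 0.741). At ZT2 and ZT10 both mutants lay below both controls. Hmgcs1, Insig1 and Acacb also had 2 such time points each, and the share among all genes was not counted. Hmgcs1 had 311, 414.5 and 610 reads in controls and 225, 409.0 and 528 for mutants, with a log2 fold change of -0.14 (interval -0.41 to 0.13, adjusted p = 0.895). With the astrocyte, oligodendrocyte and mural cell markers as a covariate it was -0.0068, and leaving out single mice gave -0.22 to -0.064.

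Insig1, itself a target of the SREBPs, had 147, 215.5 and 345 reads in controls and 147, 205.0 and 262 in mutants. Its log2 fold change was -0.20 (interval -0.48 to 0.081, adjusted p = 0.834). With the same marker covariate it was -0.12. The 2 highest Insig1 values, 345 and 341 reads, were those of controls at ZT6 and ZT18. Srebf1 went the other way. It had 178, 247.0 and 384 reads in controls and 221, 317.5 and 411 for mutants, with a log2 fold change of 0.24 (interval -0.021 to 0.51, unadjusted p = 0.061, adjusted p = 0.747). At ZT6, ZT10, ZT14 and ZT18 both mutants had more Srebf1 than both controls. A separation in 1 direction at 4 or more of the 6 time points was found for 2.69% of all genes and for 1 of the 8. This pattern was picked out after the values had been seen, and without ZT6 and ZT18 the log2 fold change of Srebf1 was 0.17 (adjusted p = 0.951).

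The estimates for the fatty acid enzymes lay near 0. Fasn had 326 ± 121 reads in controls and 323 ± 67.2 for mutants (SD, n = 12), with a log2 fold change of 0.030 (interval -0.21 to 0.27). Acaca had 361.5 ± 67.9 and 357 ± 72.9 reads, a log2 fold change of -0.022 (interval -0.28 to 0.24). Srebf2 had 585 ± 126 and 578 ± 70.8 reads, with an interval of -0.20 to 0.20. For Fasn, Acaca, Acacb and Srebf2 the intervals leave room for a difference of up to about 0.28 on the log2 scale in either direction. The sign of these 4 log2 fold changes turned under some of the alternatives.

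**Figure D4:**
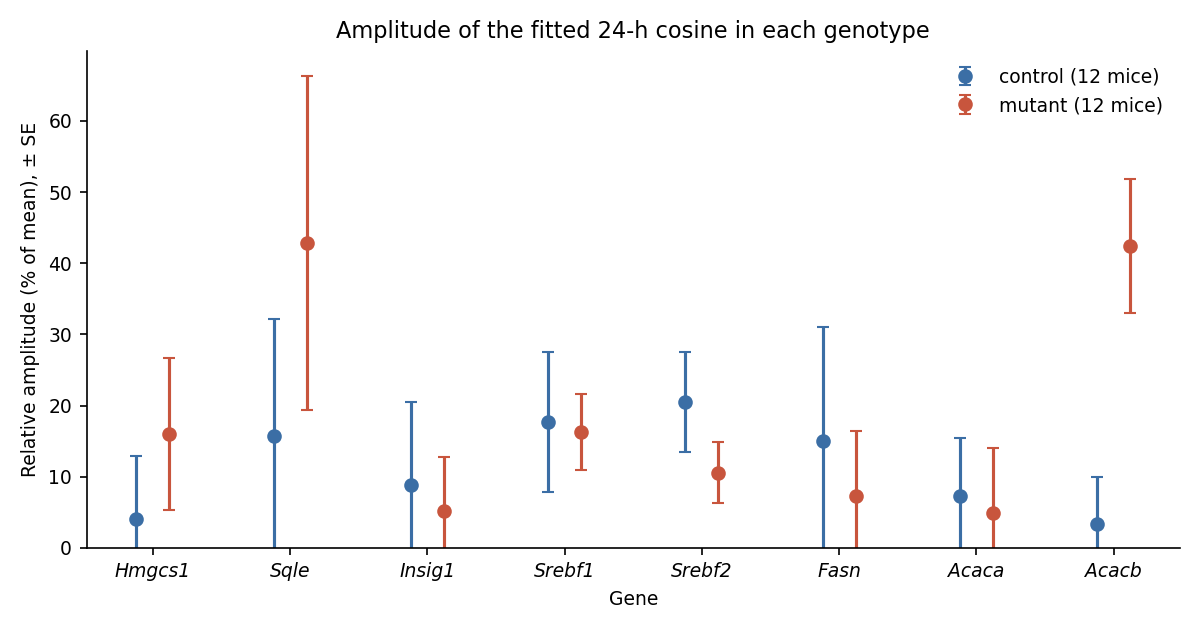
Relative amplitude in % of the mean (y axis) of the 24-h cosine fitted to 12 control and 12 mutant mice for each of the 8 genes (x axis); bars are 1 SE and are not drawn below 0. Acacb has 42.4% in mutants and 3.39% in controls, and Sqle 42.8% in mutants with an SE of 23.5%; the mutant values are a description because the list was drawn up from the mutants' pattern.

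The remaining amplitudes are given side by side, without a test. Hmgcs1 had 4.03 ± 8.83% in controls and 16.01 ± 10.7% in mutants (SE). Its highest mutant time point was ZT2, with 493 and 528 reads, and its lowest ZT18, with 225 and 319. Sqle had 15.7 ± 16.4% and 42.8 ± 23.5%, Insig1 8.89 ± 11.6% and 5.12 ± 7.65%, Srebf1 17.7 ± 9.85% and 16.3 ± 5.34%, Fasn 15.0 ± 16.02% and 7.35 ± 9.07%, and Acaca 7.33 ± 8.13% and 4.94 ± 9.07%. The fitted peak of Srebf1 lay at ZT23.5 in controls and ZT16.2 in mutants. In controls the SE exceeded the amplitude for 6 of the 8 genes, so that those peak times are not given. The median amplitude of the 8 genes in controls was 11.9%, beside 18.4% over all genes.

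Fasn was low in the libraries of ZT6 and ZT18 of both genotypes. In the 8 libraries of these time points it had 154 to 352 TMM-normalized reads (median 211), and in the other 16 it had 298 to 578 (median 366). The highest of the 8, a mutant of ZT6, lay within the range of the 16, and the other 7 lay below the lowest of the 16. Complete separation was seen for 0 of the 8 genes. Over all genes, 2.35% were lower in all 8 of these libraries than in all 16 others and 0.187% were higher. Astrocyte markers, which were lower in the same 8 libraries, had a Pearson correlation with Fasn of 0.88 over the 24 libraries, 0.59 over the 16 and 0.79 over the 8, on the log2 scale. Of the 8, mutant ZT6 replicate 1 was highest in both, with 8729 astrocyte marker reads and 352 of Fasn. The other 7 had 5293 to 6473 marker reads and 154 to 265 of Fasn. The correlation with the brain endothelial sum was -0.67 over the 24 libraries, -0.36 over the 16 and 0.45 over the 8. For microglia markers it was 0.80, 0.37 and -0.33, for oligodendrocyte markers 0.73, 0.41 and -0.30, and for mural cell markers -0.67, -0.16 and -0.059, over the same 3 sets of libraries. These are descriptions over libraries that share their handling. The part of astrocyte RNA in the Fasn values was not tested. Without ZT6 and ZT18 the genotype log2 fold change of Fasn was -0.11, against 0.030 with them, and with the astrocyte, oligodendrocyte and mural cell markers as a covariate it was 0.17. The medians of the ZT6 and ZT18 libraries and of the others were 602.8 and 629 reads for Acacb, 580.1 and 584 for Srebf2, 372 and 368 for Acaca, and 275 and 289 for Srebf1. For Sqle they were 34.7 and 57.8 reads, for Hmgcs1 355 and 423, and for Insig1 244 and 210, with overlapping ranges for each of these genes.

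**Figure D5:**
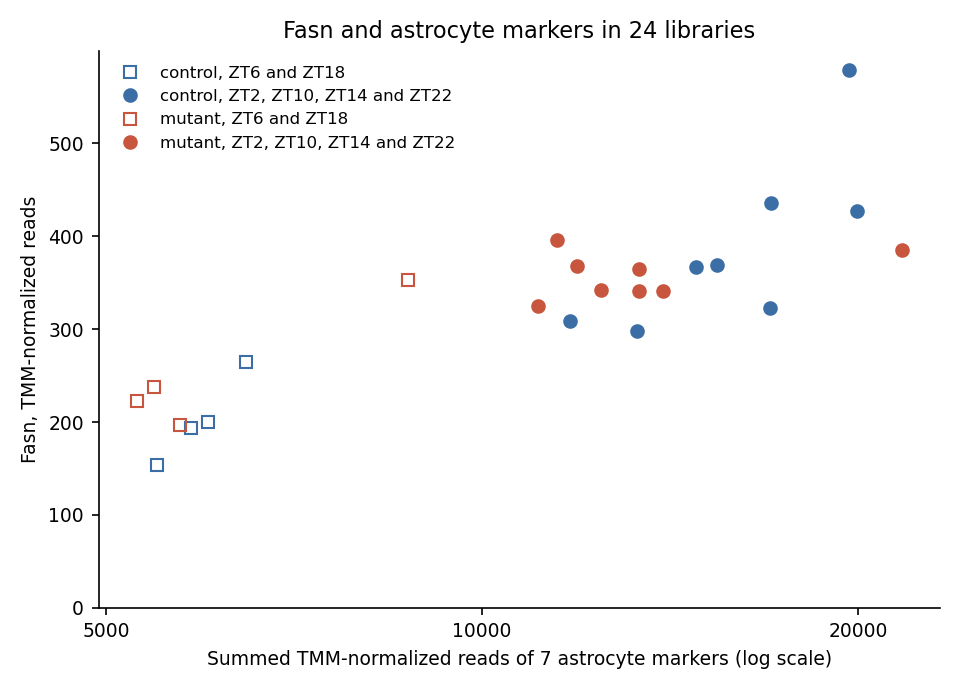
TMM-normalized reads of Fasn (y axis, from 0) against the summed TMM-normalized reads of 7 astrocyte markers (x axis, log scale) in 24 libraries, coloured by genotype, with open squares for ZT6 and ZT18. The open squares lie between 154 and 352 reads of Fasn at 5293 to 8729 marker reads, and the filled circles between 298 and 578 at 11084 to 21677.

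The reads of the 8 genes were weakly correlated with each other. Over the 28 pairs of genes, the Pearson correlation of log2 TMM-normalized reads over the 24 libraries ran from -0.39 (Insig1 and Fasn) to 0.53 (Hmgcs1 and Fasn), with a median of 0.11. Over the 16 libraries outside ZT6 and ZT18 the median was 0.12. The 5 genes most like Acacb over the 24 libraries, among genes with a mean of 50 or more reads, were Map3k6 (r = 0.785), Abcc4 (0.784), Med13l (0.781), Atp10a (0.772) and Sdc3 (0.752). For Abcc4, an efflux transporter of the endothelium, r was 0.898 over the 16 libraries and -0.50 over the 8 of ZT6 and ZT18. Among the 5 genes most like Hmgcs1 were Pccb (0.732), Steap2 (0.720), Pms1 (0.717) and Slc2a12 (0.712), and none of these 4 is an enzyme of cholesterol synthesis. These genes were picked as the highest of many correlations and share their libraries with the 2 genes.

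The pathways around the 8 genes were taken from 5 lists with 71 genes, of which 69 passed the filter and 61 were not among the 8. Of these 61, 1 had an adjusted p under 0.05 between the genotypes and 4 (6.56%) an unadjusted p under 0.05, against 6.95% of all genes. All 21 genes of cholesterol synthesis passed the filter. None had an unadjusted p under 0.05, and 14 had a negative and 7 a positive log2 fold change, with a median of -0.059. Beside Sqle, the smallest p-value was that of Acat2, which makes acetoacetyl-CoA (log2 fold change -0.69, SE 0.43, unadjusted p = 0.113, adjusted p = 0.816, edgeR). It had 3, 32.0 and 64 reads in controls and 7, 15.0 and 56 in mutants, and with the marker covariate its log2 fold change was -0.25. In controls (n = 12) the smallest meta2d p-values of the list were those of Fdps, the farnesyl diphosphate synthase (p = 0.0684, amplitude 30.9 ± 9.83%, peak at ZT16.2), and of Tm7sf2, a sterol reductase (p = 0.249, amplitude 56.8 ± 24.6%), with q = 1 for both.

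The 17 genes of fatty acid synthesis also passed. Of these, 15 had a negative and 2 a positive log2 fold change of mutant over control, with a median of -0.10, and 0 had an adjusted p under 0.05. Over all genes 7649 of 15493 were negative. The summed astrocyte markers, with a median of 14071 TMM-normalized reads in controls and 11699 in mutants, lay lower in mutants too, and their part in these signs was not tested. Me1, the malic enzyme that supplies NADPH, had 43, 141.5 and 325 reads in controls and 19, 96.5 and 224 for mutants. Its log2 fold change was -0.56 (SE 0.24, unadjusted p = 0.0253, adjusted p = 0.608, edgeR). Without ZT6 and ZT18 it was -0.37 (unadjusted p = 0.158), and with the marker covariate -0.44 (unadjusted p = 0.187). Acss2, which makes acetyl-CoA from acetate, had a log2 fold change of -0.47 (SE 0.24, unadjusted p = 0.0626). The smallest control meta2d p-values were 0.425 for Elovl1, a fatty acid elongase, and 0.631 for Mid1ip1, which activates the carboxylases. Of 13 genes of SREBP control and uptake, 12 passed. Their median was -0.054, with 8 negative and 4 positive values. Mbtps2, 1 of the proteases that release the SREBPs, had a meta2d p = 0.671 in controls (n = 12).

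The gene with an adjusted p under 0.05 was Apoe, on the list of LXR, the sterol-sensing receptor that also switches on Srebf1. Apoe had 3957, 7728.5 and 16081 reads in controls and 3785, 5830.0 and 9920 in mutants, with overlapping groups. Its log2 fold change was -0.43 (SE 0.098, adjusted p = 0.0451, edgeR). Astrocytes and microglia are the main source of Apoe in brain. Their summed markers had medians of 14071 and 12991 TMM-normalized reads in controls and 11699 and 14709 in mutants. With the astrocyte, oligodendrocyte and mural markers as a covariate the log2 fold change was -0.21 (adjusted p = 0.918), and with the sequencing index it was -0.39 (adjusted p = 0.347). Without the 3 libraries numbered apart it was -0.39 (adjusted p = 0.403). The call was lost in 20 of 33 alternatives. The part of astrocyte and microglia RNA in the Apoe values was not tested, and the marker covariate holds no microglia markers. Abcg1, a cholesterol exporter, had 182, 323.0 and 381 reads in controls and 277, 346.0 and 559 for mutants, with a log2 fold change of 0.28 (SE 0.11, unadjusted p = 0.0153, adjusted p = 0.546). Rxra, the partner of LXR, had a log2 fold change of 0.27 (SE 0.13, unadjusted p = 0.0441, adjusted p = 0.697), and of 0.14 without the 3 libraries numbered apart (adjusted p = 0.9746). The median of the 8 genes on this list was 0.099.

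AMPK switches off both carboxylases by phosphorylation, and malonyl-CoA blocks CPT1. Of 13 genes on that list 12 passed, and Cpt1b did not. None had an unadjusted p under 0.05 between the genotypes, and the median log2 fold change was 0.016. Prkab1, an AMPK subunit, had a log2 fold change of 0.24 (SE 0.12, unadjusted p = 0.0657, edgeR). With the marker covariate it was 0.13 and with the sequencing index 0.15. Without ZT6 and ZT18 it was 0.39 (unadjusted p = 0.0185, adjusted p = 0.731). Cpt1a, which loads fatty acids onto carnitine, had -0.15 (SE 0.081, unadjusted p = 0.0773). The marker covariate gave -0.23 for Cpt1a (unadjusted p = 0.0356, adjusted p = 0.910). In controls 2 of the 12 had an unadjusted meta2d p under 0.05, and these were the only 2 among the 61 pathway genes outside the 8, beside 2.43% of all genes. Mlycd, which breaks down malonyl-CoA, had p = 0.0232 (n = 12), an amplitude of 39.1 ± 11.6% and a peak at ZT3.3. Prkaa1, a catalytic subunit of AMPK, had p = 0.0328 (n = 12), an amplitude of 16.3 ± 3.91% and a peak at ZT16.1. Both had q = 1.

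In mutants, 1 of the 61 pathway genes outside the 8 (1.64%) had an unadjusted meta2d p under 0.05, against 2.27% of all genes. It was Cpt1a, with p = 0.0406 (n = 12), an amplitude of 19.6 ± 5.30% and a peak at ZT7.7, beside 20.9 ± 7.62% and a peak at ZT3.1 in controls. A difference in 24-h pattern between the genotypes, tested as an interaction in edgeR, had an unadjusted p under 0.05 for 5 of the 61 (8.20%), against 4.26% of all genes, and an adjusted p under 0.05 for 0 of the 61 and for 0 of all genes. The 5 genes, named after their values were seen, were Msmo1, Ebp, Elovl1, Mlycd and Slc25a20, with unadjusted p-values from 0.0126 to 0.0495 and an adjusted p of 1.00 each.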

How the data were processed

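The data are RNA-seq of CD31+ brain endothelial cells of 24 mice. The authors aligned strand-specific paired-end reads to GRCm38 with STAR 2.5.3a and Ensembl gene models, merged lanes with SAMtools 1.3.1 and normalized with PORT, and the deposited values are whole-number normalized read counts per gene. Because PORT evens out totals, the original depth is not in them, and intervals reflect the spread between mice.

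Groups came from the sample labels. Tests on counts used edgeR 4.0.16 under R 4.3.3 (TMM, quasi-likelihood, Benjamini-Hochberg over 15493 genes), with time as a factor for genotype. Intervals are the estimate ± SE times the t quantile of the residual degrees of freedom. JTK_CYCLE and Lomb-Scargle were combined as meta2d does, in Python 3.11.15 and SciPy 1.17.1. Relative amplitudes are from a least-squares cosine of 24 h on the reads. Levels between libraries used TMM-normalized reads. Tests were checked on simulated counts, in which those of dark against light and of rhythm missed most of the changed genes, so that no call there is not evidence of no change. DESeq2 1.42.0, other filters and scaling, covariates and each mouse left out were alternatives. Leaving out pairs of mutants for the Acacb amplitude and the 3 libraries with title numbers apart was added after seeing the data.

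The 8 genes, the lists and the tests were chosen with earlier results of these data known. Named are the 8 genes; from each of 5 pathway lists the genes with an adjusted p under 0.05 between genotypes, otherwise the 2 with the smallest p, and the 2 with the smallest meta2d p in controls; and the 5 genes most correlated with Acacb and with Hmgcs1. Some genes that this rule names are not reported here. No 2 libraries had identical values. Same-numbered mice of the genotypes did not deviate together (correlations -0.0087 to 0.015). The replicate numbers follow the order of the labels, so these correlations cannot show whether mice shared a litter or an experiment.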

Additional observations from a re-analysis of the deposited data

Results flagged for a closer look

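Single mice stood far from the other 5 of their genotype and phase in 3 of 32 groups examined, where chance flags about 1 group in 20. Insig1 had 341 reads in control ZT18 replicate 1, above the other 5 controls of the dark phase. Srebf1 had 384 reads in control ZT2 replicate 1, above the other 5 controls of the light phase, and this is the control library whose title number stands apart in the labels. Fasn had 225 reads in mutant ZT6 replicate 2, below the other 5 mutants of the light phase, which is a library of the set with low astrocyte markers.

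For 3 genes both mutants lay above both controls at some time points and below them at others. The mean of mutants minus that of controls was 436.5 reads for Acacb at ZT14, where both mutants have such title numbers, against -240.5 at ZT2 and -47 at ZT6. For Hmgcs1 it was 91 at ZT2, against -43.5 at ZT14 and -121 at ZT18. For Fasn it was 40 at ZT18, against -127.5 at ZT22. These differences between time points were not tested, since the pattern of the mutants chose the list, and 39.5% of all genes show such a change of side.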

How the results depend on the processing

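No gene of the 8 was called in any of the 33 alternatives of the genotype comparison, the 19 of dark against light or the 17 of rhythm in controls. The lowest adjusted p among these 552 values was 0.5261, and 497 of them kept their direction or side of the threshold. The number of genes called between genotypes was 42, and 141 with a filter of 1 read in any mouse, 99 with DESeq2, 7 with the sequencing index, 4 with the marker covariate and 9 without the 3 libraries numbered apart. Leaving out single mice gave 25 to 68 (25 without mutant ZT6 replicate 2, 68 without mutant ZT6 replicate 1). With the replicate block it was 45, and the block changed no call of the 8 genes. For dark against light, 0 genes became 1 with 10 reads in every mouse, with 1 read in any mouse and without ZT6 and ZT18, and 5 with DESeq2; single mice left out gave 0 to 1. For rhythm in controls, 48 genes became 133 with the edgeR cosinor, 316 with that fit without ZT6 and ZT18 and 103 with that fit and the replicate block, and 0 to 82 with single mice left out (0 without either control of ZT2). The cause of these changes was not tested.

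Some signs turned, and no value whose sign turned had an adjusted p under 0.05. Between genotypes, Srebf2 had log2 fold changes of 0.0084 with deposited totals, 0.14 with the sequencing index and 0.00037 with the marker covariate, Acacb 0.0076 with deposited totals, 0.12 with the index and 0.0027 with the replicate block, Acaca 0.082 with the index, and Fasn -0.11 without ZT6 and ZT18. With single mice left out they ran from -0.047 to 0.046 (Srebf2), -0.060 to 0.050 (Acacb), -0.070 to 0.048 (Acaca) and -0.031 to 0.10 (Fasn). For dark over light, Sqle had -0.12 and Fasn -0.20 with the marker covariate, Acacb -0.018 with it and -0.023 with deposited totals, and Srebf1 -0.034 with deposited totals and -0.10 without ZT6 and ZT18. Left-out mice gave -0.018 to 0.15 (Acacb), -0.092 to 0.27 (Fasn), -0.27 to 0.021 (Insig1) and -0.083 to 0.15 (Srebf1). Sqle between genotypes lay between -0.78 and -0.24 and Srebf1 between 0.17 and 0.33 under all 33 alternatives. With 2 mice per time point and genotype, single time points were not tested.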
